A study of Mus musculus with 34 samples.

Results

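The nuclear genes for the subunits of oxidative phosphorylation, the respiratory chain and ATP synthase of the inner mitochondrial membrane, were followed by RNA sequencing in early mouse thymocytes that had 0, 1 or 2 Bcl11b alleles floxed. Bcl11b encodes a zinc-finger transcription factor of the T lineage. The members were all genes of the Lck-Cre count table with a symbol that begins with Nduf followed by a, b, c, s or v, with Uqcr, with Cox followed by a digit from 4 to 8, or with Atp5, together with Sdha, Sdhb, Sdhc and Sdhd. This rule on names used no measured value, but it was chosen with earlier results of these data known. It took 93 of 24505 genes: 46 Nduf, 18 Cox, 17 Atp5, 8 Uqcr and 4 Sdh genes. By role they comprised 36 subunits of complex I, 4 of complex II, 8 of complex III, 19 subunits or tissue isoforms of complex IV (with Ndufa4 and Ndufa4l2, which belong there despite their names), 15 subunits of complex V, and 11 assembly or accessory genes that the names also take in (Ndufaf1 to Ndufaf8, Atp5s, Atp5sl and Cox7a2l).

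Every mouse was of strain C57BL6/J, and those of the main table carried Lck-Cre, a recombinase driven in thymocytes, also where no allele was floxed. The 5 HOM libraries (Bcl11b flx/flx) were made from YFP+CD25+ cells, and their labels name no stage. The HET libraries (Bcl11b flx/+) were 6 from YFP+CD25+ DN3 cells and 5 from YFP-CD25+ DN2 cells, and the WT libraries (Bcl11b +/+) were 5 from YFP+CD25+ DN3 cells and 4 from YFP-CD25+ DN2 cells. DN2 and DN3 are successive stages of CD4- and CD8-negative thymocytes. Stage and YFP (yellow fluorescent protein) change together here, so a DN3 against DN2 difference cannot be told apart from a difference between YFP+ and YFP- cells. A second table holds 9 libraries of YFP+CD25+ cells from mice with Vav1-iCre, a recombinase driven in blood cells, in place of Lck-Cre (3 HOM, 4 HET and 2 WT, no stage named), and lists only 2 of the members. Nothing in the labels ties a library to its own animal, and the p-values below therefore measure the spread between libraries, which may be technical.

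Complexes I (NADH dehydrogenase, Nduf genes) and II (succinate dehydrogenase, Sdh genes) pass electrons from NADH and succinate to ubiquinone, complex III (Uqcr genes) passes them to cytochrome c, and complex IV (cytochrome c oxidase, Cox genes) to oxygen. Protons pumped along the way drive complex V, the ATP synthase of the Atp5 genes. Early thymocytes use both glycolysis and mitochondrial respiration, and several complex IV subunits exist as a ubiquitous isoform and a second one named for heart, muscle or testis.

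Libraries held 15772841 to 43105091 counts over all genes, of which 140237 to 472189 fell in the members. In the WT DN2 and HET DN3 columns the values below the March symbols stand beside the wrong gene names as deposited, and 58 of the 93 members are affected. With the names restored, the members of each such library correlated with the unaffected columns at 0.993 to 0.998, against 0.513 to 0.565 before. All 6 thymocyte markers, such as Ptcra and Il2ra, had counts in every library, but so did some markers of other cells, such as Epcam, Cd4 and Lyz2. Bcl11b had 49.6 ± 10.3 RPKM in HOM and 106 ± 13.5 RPKM in WT DN3 libraries (SD, n = 5 each; RPKM are counts divided by exon length and library total). It was not called lower in HET: HET DN3 had 104 ± 11.8 RPKM (n = 6; log2 change -0.07 ± 0.12 (SE) against WT DN3, adjusted p = 0.718, edgeR), and HET DN2 had 145 ± 15.1 RPKM (n = 5), against 148 ± 12.4 RPKM in WT DN2 (n = 4; log2 change -0.01 ± 0.13 (SE), adjusted p = 0.994, edgeR). Which exons are floxed is not given in the sources used here. HOM libraries had 33.9 to 59.3 RPKM of Kit and 25.8 to 87.9 RPKM of Cpa3, both genes of earlier progenitors, against 7.41 to 15.6 and 0.804 to 26.2 RPKM in WT DN3 libraries. Epithelial markers summed to 359 to 3284 CPM (counts relative to the library total) in 6 libraries (HOM 2 and 3, HET DN3 2 and 3, HET DN2 1 and 2) and to 13.9 to 55.7 CPM in the rest. Mature T cell markers were highest in WT DN2 2 and HET DN3 1, at 419 and 306 CPM. HET DN3 1 also had 1348 CPM of erythroid markers, 35.4 CPM of myeloid and 20.1 CPM of B cell markers, the highest of all libraries for each list. The next highest erythroid sum was 63.1 CPM. Cd8a had 2.8 to 12.4 RPKM in HOM and 0.49 to 1.4 RPKM in WT DN3 libraries, without overlap, and the mature T markers summed to 21.0 to 68.9 CPM in HOM and 10.4 to 33 CPM in WT DN3 libraries. The part of these transcripts in the results was not tested.

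The members were among the more abundant transcripts of these cells. Of the 93, 82 averaged at least 10 RPKM over the 25 libraries and 42 at least 100 RPKM. The 5 highest were Atp5b, the catalytic beta subunit of ATP synthase, with 709 RPKM, Atp5a1, its alpha subunit, with 384 RPKM, Cox4i1, the ubiquitous form of the largest nuclear-encoded complex IV subunit, with 339 RPKM, and Atp5g3 and Atp5g2, encoding the proton-carrying c ring, with 334 and 331 RPKM. Levels followed the complexes: the median RPKM was 66.9 for the 7 core and 78.2 for the 29 supernumerary complex I subunits, 92.2 for complex II, 109 for complex III, 229 for the 11 general complex IV subunits, and 294 and 209 for the F1 and the Fo or stalk subunits of complex V. Assembly and accessory genes had a median of 13.0 RPKM, and within them Cox7a2l, which joins respiratory complexes into larger assemblies, stood apart with 146 RPKM. Members are short transcripts, with a median exon length of 737 bases against 2675.5 bases for all genes tested.

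At the low end stood the isoforms named for other tissues. Cox7b2 and Cox8c had 0 counts in all 25 libraries, which allows up to 0.00491 CPM each (3 counts in the summed total, counting error only). Cox8b averaged 0.0338, Ndufa4l2 0.0903 and Cox4i2, the lung form, 0.325 RPKM. These 5 genes stayed under a mean of 1 RPKM in every group and were not tested, so that 88 members and 12218 genes in all entered the tests. Among the tested members the lowest were Cox6a2 with 1.07 RPKM and Atp5s with 3.64 RPKM. Of the isoforms named for other tissues, only Cox6b2, known from testis, averaged over 10 RPKM, at 25.6 RPKM. Heart and muscle markers summed to 71.6 to 131 CPM, most of it Acta1, and myoglobin (Mb) had 0 counts in every library.

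Taken as one share of the library, the 93 genes held 1.00% to 1.19% of all counts in HOM, 0.893% to 1.05% in HET DN3, 1.03% to 1.15% in WT DN3, 0.764% to 0.923% in HET DN2 and 0.823% to 0.889% in WT DN2 libraries. All HOM and all WT DN3 libraries lay above every DN2 library, whereas HET DN3 overlapped with both its DN2 and its DN3 counterparts. Cytosolic ribosomal protein genes, another class of short and abundant transcripts, held 6.88% to 7.65% in HOM, 5.80% to 6.90% in HET DN3, 6.55% to 7.66% in WT DN3, 6.17% to 7.0% in HET DN2 and 5.85% to 6.52% in WT DN2 libraries. As these are bulk samples, a smaller share of cells that express a gene cannot be told apart from less RNA per cell.

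**Figure D1:**
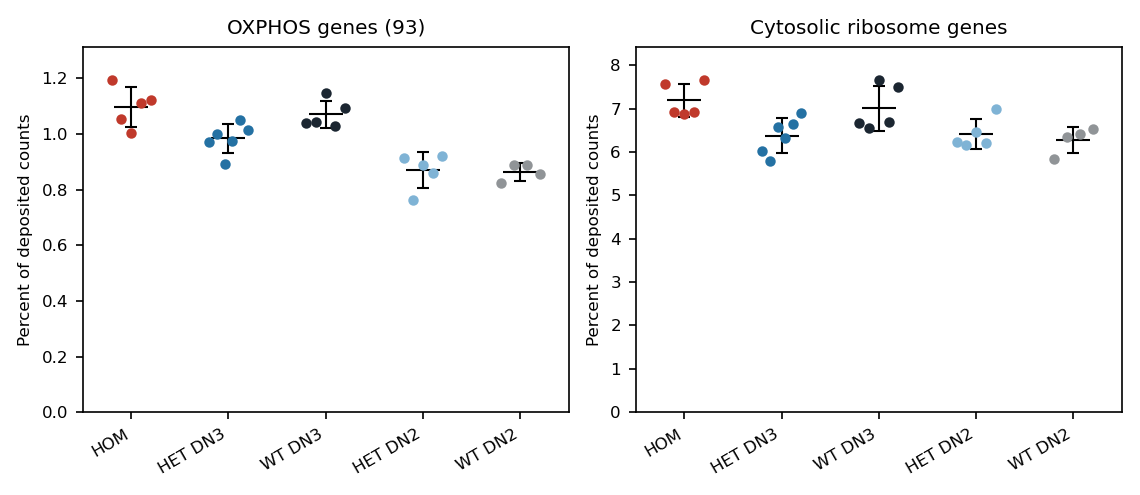
Percent of all counts of a library in the 93 oxidative phosphorylation genes (left) and in cytosolic ribosomal protein genes (right), by group; points are libraries, lines means and bars SD. HOM libraries sit at 1.00% to 1.19% and WT DN3 libraries at 1.03% to 1.15% for the oxidative phosphorylation genes, above all DN2 libraries, which end at 0.923%.

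Promoters of 77 of the 93 members were found in the RefSeq tables (build GRCm38.p6, 250 bases before to 50 after the start). They were searched on both strands for 3 motifs of regulators known for this gene class: CGCATGCG, the core of the NRF1 motif, CCGGAAG, bound by ETS factors such as GABPA, and AAGATGGCG, bound by YY1. The NRF1 core reads the same on both strands, and CCGGAAG and AAGATGGCG can overlap in the letters AAG. The NRF1 core was present in 11 members (14.3%), against 2.07% of all 27025 genes with a promoter and 4.39% of the 9537 of them that were tested. CCGGAAG was present in 18 members (23.4%), against 9.93% of all and 21.0% of tested genes. AAGATGGCG was present in 9 members (11.7%), against 1.64% of all and 3.74% of tested genes. At least 1 motif was present in 31 members (40.3%), against 12.8% of all and 27.0% of tested genes. A match is a run of letters and not a shown binding site.

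Promoters of 4 members are shown, an isoform pair whose levels differ between the groups below and 2 that carry more than 1 of the motifs: Cox6b1 (chr7:30626115-30626364) and Cox6b2 (chr7:4753095-4753344), the ubiquitous and the testis-named isoform of a complex IV subunit, Cox6a1 (chr5:115348959-115349208), and Atp5j (chr16:84834977-84835226, 1 of its 2 listed starts, the other having none of the 3 motifs in its 250 bases). Each is the 250 bases before the start, 5′ to 3′ on the minus strand of GRCm38.p6, from RefSeq, with motif matches in capitals. Positions are counted back from the start. Cox6b1 has the reverse complement of CCGGAAG at -28 to -22, and Cox6b2 has no match. Cox6a1 has the NRF1 core at -161 to -154 and the reverse complement of CCGGAAG at -16 to -10. Atp5j has the NRF1 core at -147 to -140, AAGATGGCG at -88 to -80 and CCGGAAG at -61 to -55.
Cox6b1: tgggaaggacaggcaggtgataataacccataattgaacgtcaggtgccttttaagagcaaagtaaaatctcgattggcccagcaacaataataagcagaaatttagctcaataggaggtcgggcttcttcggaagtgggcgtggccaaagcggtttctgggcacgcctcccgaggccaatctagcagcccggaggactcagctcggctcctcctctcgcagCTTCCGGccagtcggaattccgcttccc
Cox6b2: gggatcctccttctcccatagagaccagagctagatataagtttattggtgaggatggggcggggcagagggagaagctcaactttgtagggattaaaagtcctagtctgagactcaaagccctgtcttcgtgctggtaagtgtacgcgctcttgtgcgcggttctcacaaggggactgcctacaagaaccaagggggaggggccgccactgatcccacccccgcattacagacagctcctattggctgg
Cox6a1: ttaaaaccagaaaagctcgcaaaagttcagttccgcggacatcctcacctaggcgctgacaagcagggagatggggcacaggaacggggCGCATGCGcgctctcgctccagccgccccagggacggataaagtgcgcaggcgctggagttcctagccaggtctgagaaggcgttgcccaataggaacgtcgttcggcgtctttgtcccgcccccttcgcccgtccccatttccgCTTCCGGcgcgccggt
Atp5j: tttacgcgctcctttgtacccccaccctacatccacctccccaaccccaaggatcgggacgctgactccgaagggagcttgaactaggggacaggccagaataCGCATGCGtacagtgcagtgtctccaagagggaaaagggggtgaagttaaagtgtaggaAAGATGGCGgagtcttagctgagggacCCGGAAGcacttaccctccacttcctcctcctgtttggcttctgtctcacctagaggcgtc

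WT DN3 against WT DN2 shows the stage step without a floxed allele. Messages of all 5 complexes were higher in WT DN3: 48 of the 88 tested members rose and none fell, where 12.2% of all genes rose and 9.30% fell. The median log2 change of the members was 0.31, beside -0.02 over all genes, and 83 of 88 were positive. By complex, 20 of 36 members of complex I rose, 4 of 4 of complex II, 6 of 8 of complex III, 6 of 14 of complex IV, 11 of 15 of complex V and 1 of 11 assembly or accessory genes. Values are from edgeR's quasi-likelihood test, with Benjamini-Hochberg adjustment over the 12218 genes.

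Atp5b (mm9 chr10:127520363-127527444, plus strand) had 828, 862, 899.8, 815 and 836 RPKM in WT DN3 and 579.7, 555, 621 and 575 RPKM in WT DN2 libraries. The lowest WT DN3 library lay well above the highest WT DN2 library (log2 change 0.62 ± 0.07 (SE), adjusted p = 1.6e-05, edgeR). Its partner in the catalytic head, Atp5a1, rose by 0.48 on the log2 scale (adjusted p = 0.000229). The c-ring genes Atp5g1 and Atp5g3, which encode the same mature protein, rose by 0.63 and 0.62, and Atp5o, the stalk subunit that confers oligomycin sensitivity, by 0.48. Atp5d, the delta subunit of the rotor, rose by 0.47.

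In complex III, Uqcrq, a small membrane subunit, had the largest rise of all members, with 71.7, 66.4, 86.1, 71 and 72.7 RPKM in WT DN3 and 42.2, 45.2, 47.1 and 46.4 RPKM in WT DN2 libraries (log2 change 0.78 ± 0.13 (SE), adjusted p = 0.000216, edgeR). The groups did not overlap, and WT DN3 3 was the highest. Uqcrc1, a core subunit, had 127, 122, 132, 122 and 125 RPKM in WT DN3 and 105, 97, 103 and 96.4 RPKM in WT DN2 libraries, again without overlap (log2 change 0.40 ± 0.08 (SE), adjusted p = 0.000694, edgeR). Uqcrc2, the other core subunit, rose by 0.32, Uqcr10 by 0.50 and Uqcr11 by 0.47. Uqcrfs1, the Rieske iron-sulfur protein, also passed the test (0.35, adjusted p = 0.0204), but its call was lost without WT DN3 1, WT DN2 1, WT DN2 3 or WT DN2 4 (adjusted p up to 0.0697).

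The complex II genes moved together. Sdhb, the iron-sulfur subunit, had 123, 125, 139.6, 119 and 123 RPKM in WT DN3 and 93.1, 99.1, 92.1 and 84.2 RPKM in WT DN2 libraries, with no overlap (log2 change 0.53 ± 0.11 (SE), adjusted p = 0.00178, edgeR). Sdha, the flavoprotein that oxidizes succinate, changed less: it had 123, 125, 125, 126 and 126 RPKM in WT DN3 and 112, 109, 116 and 111 RPKM in WT DN2 libraries (log2 change 0.24 ± 0.06 (SE), adjusted p = 0.0055, edgeR). The membrane anchor Sdhd rose by 0.41 (adjusted p = 0.0017). Sdhc, the other anchor, rose by 0.27 (adjusted p = 0.0246), a call lost without WT DN3 2, WT DN3 3, WT DN3 5 or WT DN2 1 (adjusted p up to 0.0884).

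Complex I, with 36 tested members the largest of the complexes here, gave the most risers by count but not by share. Ndufs1, the largest core subunit, had 36, 40.8, 33.8, 35.3 and 35.4 RPKM in WT DN3 and 30.9, 28.5, 29.7 and 26.4 RPKM in WT DN2 libraries, without overlap (log2 change 0.41 ± 0.09 (SE), adjusted p = 0.0029, edgeR). Ndufv1, the core subunit that binds NADH, had 90.5, 89.8, 96.7, 83.7 and 97.5 RPKM in WT DN3 and 75.2, 65.4, 74.2 and 65.6 RPKM in WT DN2 libraries (log2 change 0.47 ± 0.09 (SE), adjusted p = 0.00108, edgeR). Ndufab1, the mitochondrial acyl carrier protein, rose by 0.61, Ndufa9 by 0.37, Ndufb6 by 0.55 and Ndufc2 by 0.42. In contrast, Ndufa6, the subunit that holds Ndufab1, had a log2 change of 0.01 and did not pass the test (adjusted p = 0.957). The span of Ndufs1 overlaps a gene on the opposite strand, Ino80dos, by 14704 bases, and whether the counting used strand is not given in the sources used here.

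In complex IV, Cox4i1 had 386, 337, 429, 374 and 411 RPKM in WT DN3 and 312, 328, 315 and 329 RPKM in WT DN2 libraries (log2 change 0.35 ± 0.10 (SE), adjusted p = 0.0126, edgeR). Cox6a1 rose by 0.58, Cox7a2 by 0.49, Cox5a by 0.48 and Cox8a by 0.44. Cox5b rose by 0.45 with an adjusted p of 0.0253, which was lost without WT DN3 3, WT DN3 5, WT DN2 1 or WT DN2 2 (up to 0.0797). Of the assembly genes only Ndufaf7, a methyltransferase needed to assemble complex I, rose (log2 change 0.39 ± 0.11 (SE), adjusted p = 0.0117, edgeR). When a fit allowed the change to vary with exon length, 41 members rose and 1 fell, with a median of 0.23. Scaling by total counts alone gave 38 higher and 2 lower, while over all genes it gave 1025 higher and 1669 lower, against 1486 and 1136 with the TMM scaling used here.

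**Figure D2:**
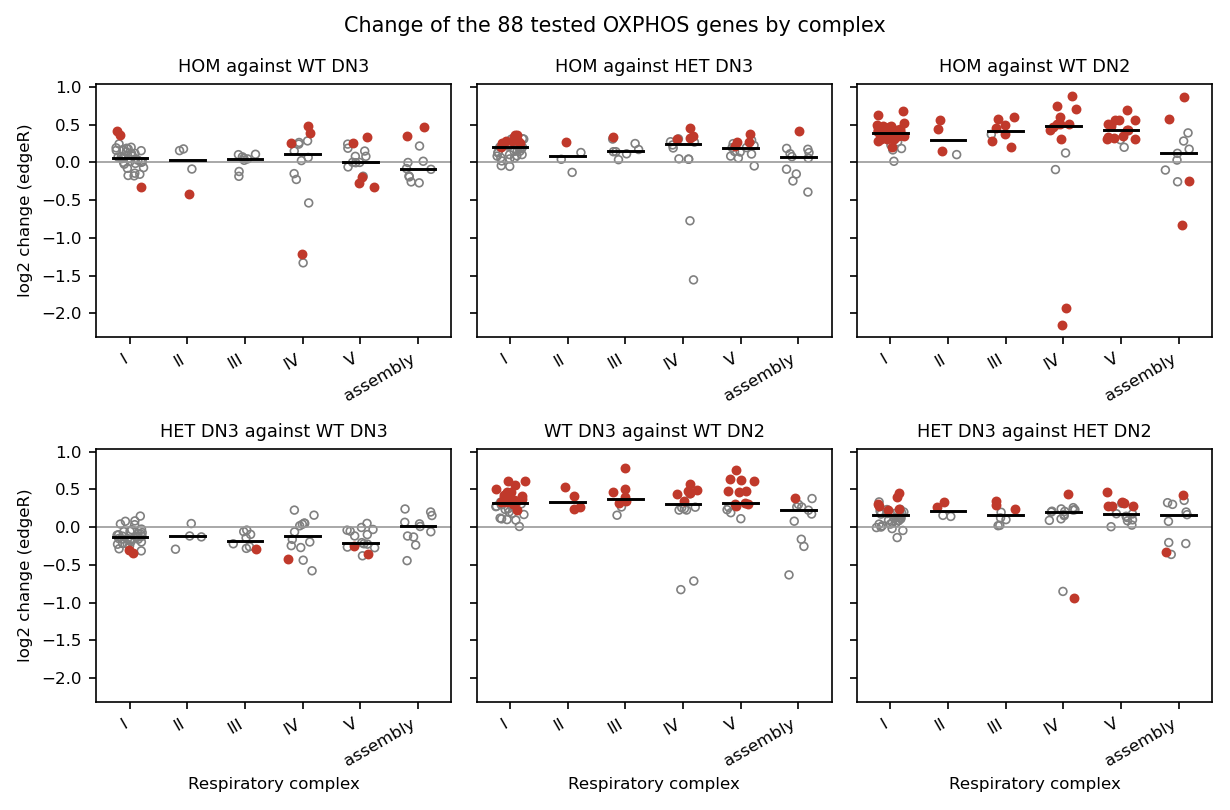
Log2 change of the 88 tested members by complex in 6 comparisons, from edgeR; each point is a gene, filled where the adjusted p was under 0.05, and the bar is the median. In WT DN3 against WT DN2 and in HOM against WT DN2 the points lie mostly above 0, with medians over all members of 0.31 and 0.39; in HET DN3 against WT DN3 they lie mostly below 0, with a median of -0.12.

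HET DN3 against HET DN2 is the same stage step with 1 floxed allele, in libraries that the WT step does not share. Here 19 of 88 members rose and 2 fell, where 6.36% of all genes rose and 4.52% fell, and the median log2 change was 0.17, beside -0.01 over all genes. Risers were 6 members of complex I, 2 of complex II, 3 of complex III, 1 of complex IV, 6 of complex V and 1 assembly gene. Of them, 18 also rose in the WT step, so that the shared genes are 18 of 19 HET risers (94.7%) and 18 of 48 WT risers (37.5%). Over all genes tested, 572 rose in both steps, which is 73.6% of the 777 HET risers and 38.5% of the 1486 WT risers. The count moved with single libraries: it was 7 without HET DN3 5, 9 without HET DN2 4, 10 without HET DN2 2, 11 without HET DN3 1 and 12 without HET DN3 2. It was 12 without the 6 libraries with epithelial transcripts and 10 when HET DN3 1 and WT DN2 2 were also left out. With the replicate number as a block it was 0.

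Cox7a2, the ubiquitous form of a small complex IV subunit, had a lowest of 74.9, a median of 88.4 and a highest of 94.9 RPKM in HET DN3 libraries, against 68.6, 59.8, 59.7, 62.3 and 76.7 RPKM in HET DN2 libraries. Only the highest HET DN2 library reached into the HET DN3 range (log2 change 0.44 ± 0.09 (SE), adjusted p = 0.00354, edgeR). Atp5b had a lowest of 662, a median of 710.4 and a highest of 814 RPKM in HET DN3 libraries, against 636, 510.4, 609.9, 593 and 598 RPKM in HET DN2 libraries, without overlap (log2 change 0.34 ± 0.07 (SE), adjusted p = 0.00269, edgeR). Atp5g3 rose by 0.46, Atp5f1 by 0.31, Ndufb3 by 0.31, Atp5a1 by 0.28 and Uqcrc2 by 0.23. These 7 named calls held with any 1 library left out. Ndufs1 rose by 0.28 (adjusted p = 0.0289), which was lost without HET DN3 1, 2 or 5 or HET DN2 3 or 5 (up to 0.0865). Ndufaf6, a complex I assembly factor, rose by 0.43 (adjusted p = 0.0182) and lost its call without HET DN3 5 or HET DN2 4 (up to 0.0566). Those that fell were Cox6b2, described with its isoform below, and Atp5sl (-0.34, adjusted p = 0.0268), whose call was lost without HET DN3 1, 4 or 5 or HET DN2 2 or 3 (up to 0.0676).

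Panel genes that did not pass in the HET step were Sdha (0.16, adjusted p = 0.056), Uqcrc1 (0.12, 0.255) and Cox4i1 (0.09, 0.553). The difference between the HET and the WT step was tested directly. No member and no gene at all was called (0% of 12218 genes by edgeR, where 10 of 88 members and 1112 genes had an unadjusted p under 0.05). DESeq2 called 20 genes and 0 members. Still, 80 of 88 differences were negative, with a median of -0.17 beside -0.01 over all genes. For Atp5b the difference was -0.28 (adjusted p = 0.476, edgeR). Its 95% interval of -0.48 to -0.09 is not adjusted for the number of genes tested. With no member called, the smaller count of risers in HET is not shown to be a different response.

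HOM cells were set against WT DN2 to place them beside the earlier stage, although the YFP sort differs as well. Here 64 of 88 members rose and 4 fell, where 21.3% of all genes rose and 19.9% fell, and the median log2 change was 0.39, beside 0.04 over all genes. Risers were 29 of 36 members of complex I, 3 of 4 of complex II, 7 of 8 of complex III, 10 of 14 of complex IV and 13 of 15 of complex V. With the length term 43 rose and 4 fell, with a median of 0.22. HOM against WT DN2 shares its WT DN2 libraries with the WT step. Kit, given above, was higher in all HOM libraries than in WT DN2 libraries (18.0 to 30.5 RPKM), and the HOM range of Cpa3 took in that of WT DN2 (52.0 to 65.0 RPKM). Their part in these differences was not tested.

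Cox7a2 had 121, 109.7, 95.9, 128 and 101 RPKM in HOM and 53.8, 71.1, 64.5 and 60.6 RPKM in WT DN2 libraries, and the groups did not overlap (log2 change 0.88 ± 0.10 (SE), adjusted p = 6.7e-07, 1.84-fold, edgeR). Cox7b had 158, 132, 107, 143 and 124 RPKM in HOM and 67.4, 98.3, 81 and 79.1 RPKM in WT DN2 libraries (log2 change 0.75 ± 0.13 (SE), adjusted p = 8.68e-05, edgeR). Cox8a rose by 0.71, Cox6b1 by 0.51 and Cox5b by 0.60, whereas Cox4i1 had a log2 change of 0.12, or -0.05 with the length term, that did not pass (adjusted p = 0.318). In complex V, Atp5g3 rose by 0.70, Atp5f1 by 0.56, Atp5a1 by 0.48, Atp5b by 0.43 and Atp5c1, the rotating gamma subunit, by 0.35. In complex III, Uqcrq rose by 0.60, Uqcr10 by 0.57 and Uqcrc2 by 0.37.

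Of the complex I risers, Ndufc2, a membrane-arm subunit, had the smallest adjusted p, with a log2 change of 0.62 (adjusted p = 7.25e-06), and included Ndufb3 (0.53), Ndufa8 (0.50), Ndufs1 (0.43) and Ndufa6 (0.42). In complex II, Sdhd rose by 0.56 and Sdhc by 0.44. Sdha rose by 0.15 (adjusted p = 0.0434), a call lost without HOM 1, HOM 2, HOM 5 or any 1 of the 4 WT DN2 libraries (up to 0.0983). Sdhb had a log2 change of 0.10 and did not pass (adjusted p = 0.478). Ndufaf7 rose by 0.86 and Ndufaf1, which assembles complex I, by 0.58. The 4 that fell were Cox6b2, Cox6a2, Atp5s and Cox7a2l, of which Cox6a2 reached the minimum level for testing in the DN2 groups alone. Atp5s, coupling factor B of the ATP synthase, had 2.55, 2.42, 2.92, 1.78 and 3.47 RPKM in HOM and 4.19, 4.85, 4.93 and 5.34 RPKM in WT DN2 libraries (log2 change -0.83 ± 0.24 (SE), adjusted p = 0.00789, edgeR). Cox7a2l fell by 0.24 on the log2 scale (adjusted p = 0.0279), which was lost without HOM 4, WT DN2 2, WT DN2 3 or WT DN2 4 (up to 0.117).

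HOM against WT DN3 compares 2 floxed alleles with none in the same YFP+CD25+ sort. Members were called in both directions here: 9 of 88 rose and 6 fell, where 19.8% of all genes rose and 19.7% fell. Their median log2 change was 0.05, beside 0.01 over all genes, and 25 had an unadjusted p under 0.05. Risers were Ndufa6 and Ndufc1 of complex I, Cox7a2, Cox7b and Cox6b1 of complex IV, Atp5f1 and Atp5j of complex V, and the complex I assembly genes Ndufaf7 and Ndufaf1. Those that fell were Ndufs8, Sdhb, Cox6b2, Atp5g1, Atp5d and Atp5b, and no member of complex III passed. The split was 16 higher and 6 lower with scaling by total counts, and 8 higher and 9 lower with the length term. Without the 8 libraries with epithelial or mature T transcripts it was 22 higher and 4 lower.

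Ndufa6 (mm9 chr15:82180569-82184721, minus strand) had 139, 132, 127, 114 and 138 RPKM in HOM and 96.4, 90.1, 99.8, 95 and 97.4 RPKM in WT DN3 libraries. Every HOM library lay above every WT DN3 library (log2 change 0.41 ± 0.08 (SE), adjusted p = 0.000225, edgeR). Ndufc1 had 89.3, 91.4, 74.7, 91.7 and 83.2 RPKM in HOM and 66.5, 60.2, 69.3, 68.9 and 61.5 RPKM in WT DN3 libraries, also without overlap (log2 change 0.37 ± 0.12 (SE), adjusted p = 0.0155, edgeR). Ndufs8, a core subunit whose iron-sulfur clusters pass electrons towards ubiquinone, went the other way, with 54.5, 45.9, 42.9, 47 and 54.6 RPKM in HOM and 60.9, 56.8, 65, 54.7 and 63.2 RPKM in WT DN3 libraries (log2 change -0.33 ± 0.09 (SE), adjusted p = 0.00869, edgeR). Its highest HOM library stayed just under the lowest WT DN3 library. Without the 6 libraries with epithelial transcripts the adjusted p of Ndufs8 was 0.0627. Ndufs1 had a log2 change of 0.03 and did not pass (adjusted p = 0.82).

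Among the complex II genes, Sdhb (mm9 chr4:140517186-140535107, plus strand) fell: it had 112, 91.7, 86.8, 95.6 and 92.2 RPKM in HOM and 123, 125, 139.6, 119 and 123 RPKM in WT DN3 libraries. All HOM libraries were below all WT DN3 libraries, HOM 1 being the nearest (log2 change -0.43 ± 0.10 (SE), adjusted p = 0.00236, edgeR). The flavoprotein Sdha, its direct partner, had a log2 change of -0.09 (adjusted p = 0.198). HET DN3 libraries had a lowest of 88.2, a median of 108 and a highest of 119 RPKM of Sdhb, with a median between these groups, and the test called neither of the comparisons with HET DN3 (adjusted p = 0.352 for HOM against HET DN3 and 0.0628 for HET DN3 against WT DN3). Sdhb lost its call under none of the alternatives tried.

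In complex IV, Cox7b, a small subunit, had the largest rise of any member. It had 158, 132, 107, 143 and 124 RPKM in HOM and 84.2, 85, 111, 87 and 95.7 RPKM in WT DN3 libraries (log2 change 0.49 ± 0.12 (SE), adjusted p = 0.00299, edgeR). The lowest HOM library, HOM 3, fell inside the WT DN3 range. Cox7a2 had 121, 109.7, 95.9, 128 and 101 RPKM in HOM and 80.6, 83.9, 93, 76.1 and 81.8 RPKM in WT DN3 libraries, without overlap (log2 change 0.39 ± 0.09 (SE), adjusted p = 0.00252, edgeR). Cox4i1, with 361, 339.9, 313, 314 and 363 RPKM in HOM and 386, 337, 429, 374 and 411 RPKM in WT DN3 libraries, had a log2 change of -0.23 and missed the threshold (adjusted p = 0.0505). It passed with the length term (adjusted p = 0.00113).

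The complex V changes were split by gene. Atp5g1, 1 of the 3 c-ring genes, had 146, 116, 118, 134 and 138 RPKM in HOM and 169, 161, 169.5, 145 and 152 RPKM in WT DN3 libraries (log2 change -0.32 ± 0.09 (SE), adjusted p = 0.00766, edgeR), with HOM 1 alone reaching the lowest WT DN3 library. Without the 6 libraries with epithelial transcripts its adjusted p was 0.0617. The other c-ring genes did not pass: Atp5g2 had a log2 change of -0.00 and Atp5g3 of 0.08 (adjusted p = 1 and 0.554). Atp5f1, the b subunit of the stalk, had 203, 167, 166, 212 and 183 RPKM in HOM and 150.3, 155, 160.0, 144 and 152 RPKM in WT DN3 libraries, without overlap (log2 change 0.26 ± 0.08 (SE), adjusted p = 0.011, edgeR). Its span overlaps that of Wdr77 on the opposite strand by 751 bases, and that of Atp5j, the F6 stalk subunit, overlaps Gabpa by 502 bases.

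Ndufaf7 (mm9 chr17:79336475-79347392, plus strand) gave the tightest separation among the assembly genes, with 13, 12.6, 12.6, 14.1 and 13.3 RPKM in HOM and 9.65, 8.74, 9.21, 9.46 and 9.24 RPKM in WT DN3 libraries (log2 change 0.47 ± 0.10 (SE), adjusted p = 0.00065, edgeR), and its HET DN3 libraries had a lowest of 9.62, a median of 9.86 and a highest of 10.4 RPKM. HOM libraries lay above all others of both DN3 groups. Together with Ndufa6, Sdhb, Cox7a2, Cox7b and Cox6b2 it kept its call under every alternative tried. The remaining 5 calls were weaker: Cox6b1 (0.25, adjusted p = 0.0342), Atp5j (0.33, 0.0278), Atp5d (-0.27, 0.0324), Atp5b (-0.19, 0.0338) and Ndufaf1 (0.35, 0.0414). Each of the 10 HOM and WT DN3 libraries, when left out, took the call from at least 1 of these 5 genes, with adjusted p-values up to 0.0949 for Cox6b1, 0.0782 for Atp5j, 0.131 for Atp5d, 0.152 for Atp5b and 0.0981 for Ndufaf1.

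**Figure D3:**
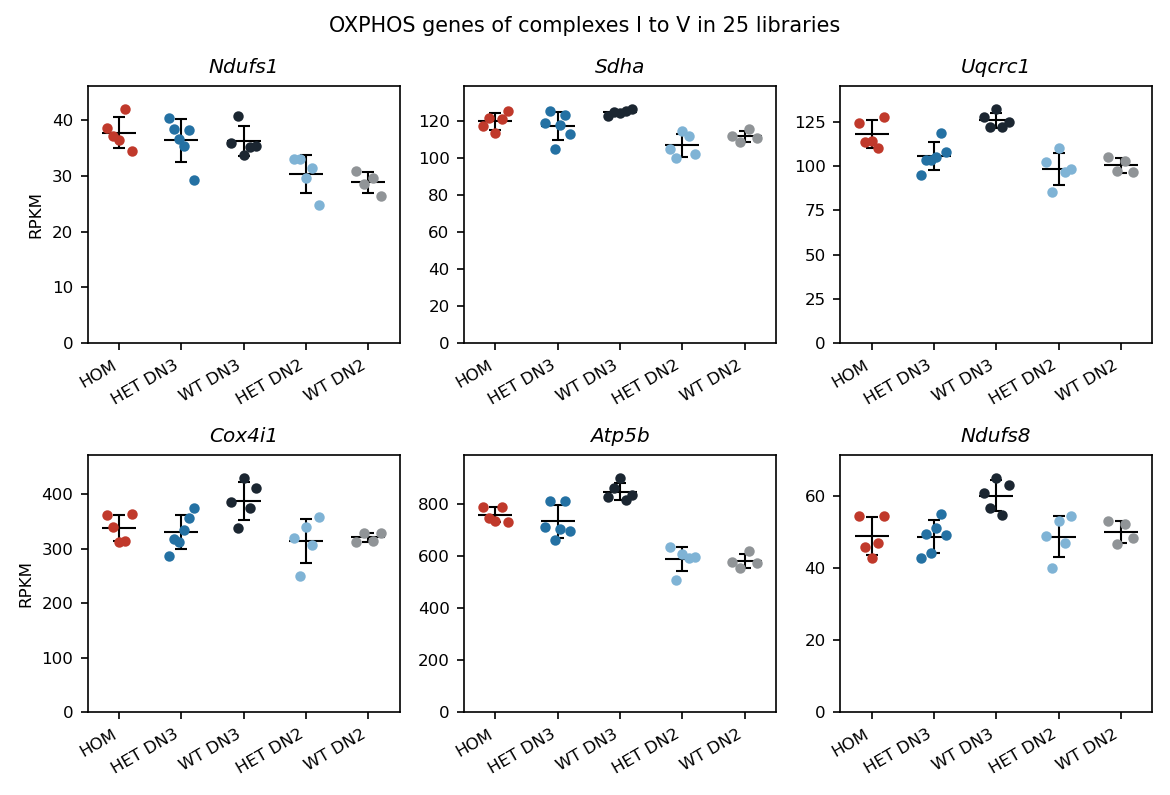
RPKM per library of Ndufs1, Sdha, Uqcrc1, Cox4i1 and Atp5b, 1 gene for each complex, and of Ndufs8, by group; points are libraries, lines means and bars SD. Atp5b averaged 759 ± 28.5 RPKM in HOM, 734 ± 63.9 in HET DN3, 848 ± 33.5 in WT DN3, 589 ± 47.1 in HET DN2 and 583 ± 27.8 in WT DN2 libraries.

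HOM against HET DN3 compares 2 floxed alleles with 1, in the same sort. All members called here were higher in HOM: 20 of 88 members rose and none fell, where 11.8% of all genes rose and 13.0% fell, with a median log2 change of 0.18 beside -0.02 over all genes. Risers were 9 of the 29 supernumerary and 0 of the 7 core subunits of complex I, 1 member each of complexes II and III, 4 of complex IV, 4 of complex V and Ndufaf7. The changes of all 7 core subunits were positive, with a median of 0.08 beside 0.22 for the supernumerary ones, and a difference between these classes was not tested. In the same libraries 26 of 74 cytosolic ribosomal protein genes rose and 1 fell. The members are short, and with the length term 8 rose and 2 fell, with a median of 0.06. The count was 10 without HOM 1, the HOM library with the largest share of counts in the members, and 14 to 28 with any other library left out. With the replicate number as a block it was 15, of which 10 were among the 20, and 1 with the length term as well.

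Cox8a, a small complex IV subunit, had 465, 425, 381, 328 and 429 RPKM in HOM libraries, against a lowest of 225, a median of 298 and a highest of 345 RPKM in HET DN3 libraries. Only HOM 4 fell inside the HET DN3 range (log2 change 0.46 ± 0.11 (SE), adjusted p = 0.00235, edgeR). Without the 8 libraries with epithelial or mature T transcripts its adjusted p was 0.0588. Ndufb10, a membrane-arm subunit of complex I, had 180.1, 141, 144, 154 and 174 RPKM in HOM libraries, against a lowest of 103, a median of 125 and a highest of 138 RPKM in HET DN3 libraries, without overlap (log2 change 0.37 ± 0.09 (SE), adjusted p = 0.0038, edgeR). Ndufa6 rose by 0.33 (adjusted p = 0.00173) and Ndufa8 by 0.28 (0.00537), but with the length term these were 0.125 and 0.081. Sdhd had 110.0, 97.2, 94.7, 98.4 and 101 RPKM in HOM libraries, against a lowest of 76, a median of 82.4 and a highest of 89.8 RPKM in HET DN3 libraries (log2 change 0.27 ± 0.08 (SE), adjusted p = 0.0102, edgeR), and did not overlap between the groups.

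Cox7a2 (0.35, adjusted p = 0.00592), Cox6b1 (0.31, 0.0101), Atp5f1 (0.26, 0.0107) and Ndufaf7 (0.41, 0.00241) rose as well and held with any 1 library left out. HOM 1 alone decided Ndufc2 (0.25, adjusted p 0.0187, 0.0693 without it), and HOM 4 alone Atp5j (0.37, 0.016, 0.0509 without it). Ndufb3 and Ndufb11 lost their calls without HOM 1 or HOM 5 (up to 0.0593 and 0.0909). Uqcr10 lost its call without HOM 1, HOM 4, HET DN3 3 or HET DN3 4 (up to 0.0969), and Cox7b without HOM 1, HOM 2, HOM 4, HET DN3 3, HET DN3 4 or HET DN3 5 (up to 0.142). The same held for Atp5g2 without HOM 1, HOM 5, HET DN3 1 or HET DN3 3 (up to 0.0807) and for Atp5a1 without HOM 1, HET DN3 2, HET DN3 3 or HET DN3 6 (up to 0.0809). The panel genes Ndufs1 (0.06), Sdha (0.04), Uqcrc1 (0.17), Cox4i1 (0.04, or -0.09 with the length term) and Atp5b (0.06) did not pass (adjusted p from 0.0684 to 0.757).

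A single floxed allele was compared with none at each stage. In HET DN3 against WT DN3, 6 of 88 members fell and none rose, where 3.06% of all genes fell and 4.31% rose, and the median log2 change was -0.12, beside 0.02 over all genes. Changes were negative for 69 of 88. The 6 were Uqcrc1 (-0.29 ± 0.07 SE, adjusted p = 0.0247 by edgeR), Ndufs8 (-0.34, 0.0341), Ndufb10 (-0.30, 0.0461), Cox6a1 (-0.42, 0.0392), Atp5d (-0.35, 0.0345) and Atp5b (-0.25, 0.0357). Uqcrc1 had a lowest of 95, a median of 104 and a highest of 119 RPKM in HET DN3 libraries, against 127, 122, 132, 122 and 125 RPKM in WT DN3 libraries. The highest HET DN3 library lay just below all WT DN3 libraries. Cytosolic ribosomal protein genes moved the same way, with 13 of 74 lower and 0 higher.

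None of the 6 calls is firm. The count was 0 without WT DN3 3, WT DN3 5, HET DN3 1 or HET DN3 3, 1 without WT DN3 1, 2 without WT DN3 4, 3 without HET DN3 4 and 13 without HET DN3 5. It was 1 without the 6 libraries with epithelial transcripts and 0 without the 8 with epithelial or mature T transcripts. In HET DN2 against WT DN2 no member was called, nor any other gene (0% of 12218 genes higher and 0% lower by edgeR). There 3 members and 912 genes had an unadjusted p under 0.05, DESeq2 called 182 genes and 0 members, and the median log2 change was 0.03.

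Of the complex IV isoforms, Cox6b2 was lower in HOM than in either WT group. Cox6b2 (mm9 chr7:4703394-4704696, minus strand) had 8.99, 5.23, 9.49, 11.2 and 19 RPKM in the HOM libraries, against 20.1, 20.8, 26.1, 25.9 and 29.5 RPKM in the WT DN3 libraries. All HOM libraries were below all WT DN3 libraries (log2 change -1.21 ± 0.32 (SE), adjusted p = 0.00457, 0.432-fold, edgeR). HET DN3 libraries had a lowest of 9.08, a median of 18.7 and a highest of 27.8 RPKM, HET DN2 libraries 28.1, 21.3, 31.6, 45.2 and 54.7 RPKM and WT DN2 libraries 39.5, 38.7, 46.8 and 44.8 RPKM. HOM against WT DN2 gave a log2 change of -1.93 ± 0.34 (adjusted p = 9.41e-05), again with no overlap, and HOM against HET DN3 gave -0.77 (adjusted p = 0.0685), which did not pass.

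In order of mean level, Cox6b2 averaged 10.8 ± 5.06 RPKM in HOM, 18.7 ± 8.08 in HET DN3, 24.5 ± 3.95 in WT DN3, 36.2 ± 13.5 in HET DN2 and 42.5 ± 3.93 in WT DN2 libraries (SD). Neighbours in this order did not pass the test where tested: HET DN3 against WT DN3 had a log2 change of -0.44 (adjusted p = 0.338) and HET DN2 against WT DN2 of -0.21 (0.957). The WT step of -0.71 did not pass (adjusted p = 0.128), although the WT groups did not overlap. The HET step of -0.94 passed (adjusted p = 0.0457) but lost its call without HET DN3 1, 2, 3 or 5 or HET DN2 3, 4 or 5 (up to 0.139). Within HET DN3 the lowest library was HET DN3 2, and within HET DN2 also HET DN2 2, both with epithelial transcripts. HET DN2 1, another of the 6 such libraries, was the next lowest of HET DN2. In HET DN3 the next lowest was HET DN3 1, which is not among the 6, while HET DN3 3, which is, lay above the group median. The part of these transcripts in the Cox6b2 level was not tested.

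Cox6b1, the ubiquitous form, moved the opposite way: it had 306, 267, 242, 274 and 298 RPKM in HOM and 205, 200.3, 264, 224 and 249 RPKM in WT DN3 libraries, with overlap. Per exon length, Cox6b2 therefore made up 1.92% to 5.97% of the summed Cox6b1 and Cox6b2 level in HOM, 3.57% to 11.8% in HET DN3, 8.93% to 10.6% in WT DN3, 9.65% to 19.8% in HET DN2 and 14.8% to 19.1% in WT DN2 libraries. HOM did not overlap with either WT group. Cox6a2, the heart and muscle form of another subunit, was low throughout, with 0, 0.67, 0.53, 0 and 0.416 RPKM in HOM, 0.885, 0.447, 0.793, 1.08 and 0.887 RPKM in WT DN3 and 1.58, 1.94, 1.41 and 1.25 RPKM in WT DN2 libraries. It averaged 1.81 ± 0.493 RPKM in HET DN2 and 1.55 ± 0.295 RPKM in WT DN2 libraries and entered the tests through these groups alone, so that a lower value in HOM against WT DN2 was favoured by the choice of genes tested. There it was called lower (log2 change -2.16 ± 0.67 (SE), adjusted p = 0.0126, edgeR) and it did not pass in HOM against WT DN3 (-1.33, adjusted p = 0.0993). Creatine kinase (Ckm), 1 of the heart and muscle markers, was at 2.97 to 11 RPKM in HOM and at or below 0.139 RPKM in WT DN3 libraries. Mb, of the same list, had 0 counts in every library, and the other markers of that list are not given by group here. The Ckm values therefore do not stand for the list, and a muscle trait of HOM cells is not shown.

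Cox6a2 and Cox6b2 are also the 2 members that the Vav1-iCre table lists. That table holds 2076 genes that lie away from no change in its own HOM cells, so their presence is no independent support, and the full depth of its libraries is unknown. Cox6b2 had 72, 91 and 73 counts in the 3 HOM, 357, 586, 416 and 671 counts in the 4 HET and 835 and 666 counts in the 2 WT libraries. Cox6a2 had 4, 2 and 0 counts in HOM, 30, 47, 39 and 92 counts in HET and 44 and 53 counts in WT libraries. Both were lowest in the HOM libraries of that table. Cox7a1, the heart and muscle form of the Cox7a subunit, averaged 3.6 ± 1.88 RPKM in HOM and 5.09 ± 0.847 RPKM in WT DN3 libraries in the Lck table and was called in no comparison.

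**Figure D4:**
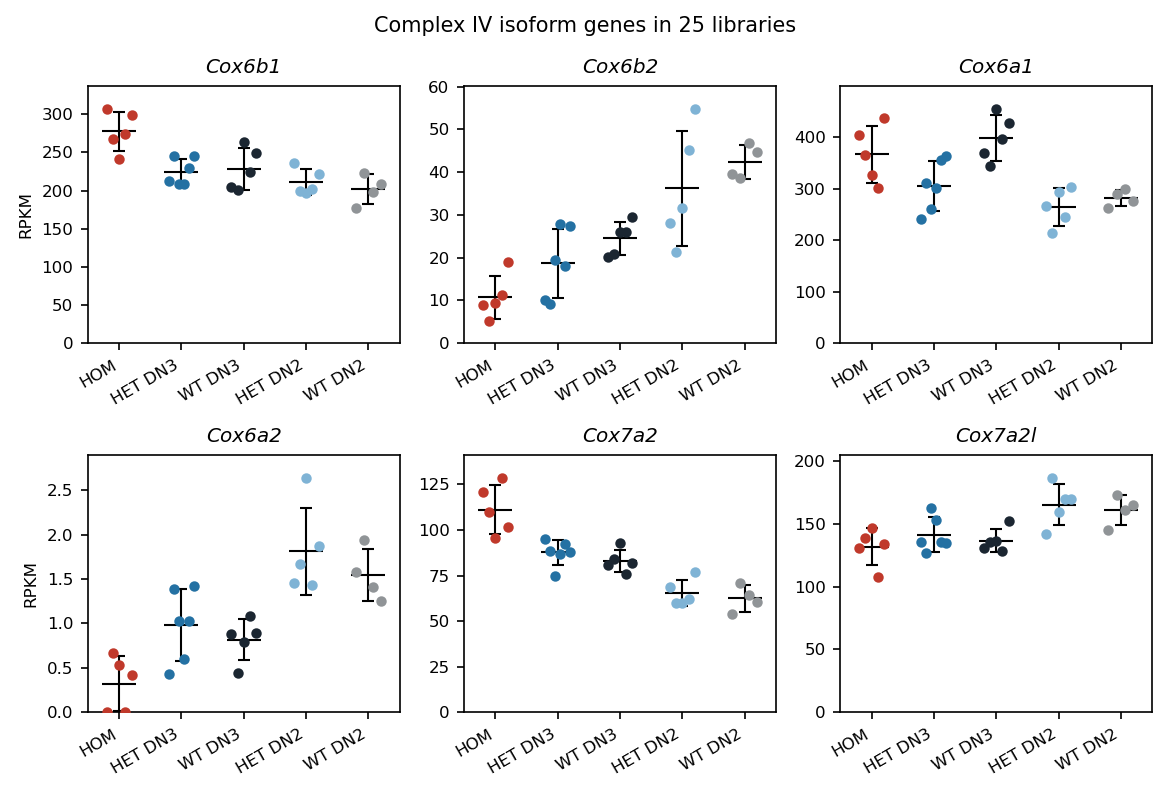
RPKM per library of complex IV isoforms and of Cox7a2l, by group; points are libraries, lines means and bars SD. Cox6b2 is lowest in HOM libraries, at 10.8 ± 5.06 RPKM (mean ± SD), and highest in WT DN2 libraries, at 42.5 ± 3.93 RPKM, while Cox7a2 is highest in HOM libraries, at 111 ± 13.4 RPKM.

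Of the tested members, 12 were called in no comparison: Ndufa2, Ndufb2, Ndufb7 and Ndufs7 of complex I, Uqcrb of complex III, Cox7a1, Atp5l, and 5 assembly factors (Ndufaf2, Ndufaf3, Ndufaf4, Ndufaf5 and Ndufaf8). The matching share over all genes tested was not counted. By promoter, 15 of 31 tested members with at least 1 of the 3 motifs rose in WT DN3 against WT DN2, as did 25 of 44 with none, where 12.2% of all genes rose. The median log2 changes of these 2 sets of members were 0.32 and 0.31.

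Genes of neighbouring mitochondrial functions were read from lists that, like the members, were chosen with earlier results known. In the WT step 45 of 78 mitochondrial ribosomal protein genes rose, as did 16 of 24 genes of the TCA cycle and pyruvate dehydrogenase, 7 of 15 respiratory chain genes outside the naming rule and 31 of 74 cytosolic ribosomal protein genes, and none of these fell, beside 12.2% of all genes higher and 9.30% lower. Named members of the lists were Mrpl12 (log2 change 0.81), Got2 (0.62), the citrate synthase gene Cs (0.52), Cyc1, which encodes cytochrome c1 of complex III (0.68), and Slc25a5, an ADP/ATP carrier (0.68). In the HET step the counts higher were 18, 10, 8 and 1 of the same lists, again with none lower, beside 6.36% of all genes higher. Of 30 assembly factors outside the rule, 4 rose in the WT step and 2 in the HET step, near the shares over all genes.

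In HOM against WT DN3 the same lists held calls in both directions, where 19.8% of all genes rose and 19.7% fell: 6 of 78 mitochondrial ribosomal genes rose and 10 fell, 4 of 24 TCA cycle genes rose and 4 fell, 5 of 15 further respiratory chain genes rose and 2 fell, and 9 of 74 cytosolic ribosomal genes rose and 3 fell. Most of these shares lie near or below those over all genes. Suclg1 of succinyl-CoA synthetase rose by 0.50 on the log2 scale. Atpif1, the inhibitor of the ATP synthase, fell by 0.42, and Cox10, which makes heme for complex IV, fell by 0.46. Etfdh, which feeds electrons from fatty acid oxidation to ubiquinone, rose by 0.36. All of these had adjusted p-values of at most 0.00197 (edgeR).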

How the data were processed

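The deposited values used here are whole-number counts of reads per gene: the deposited tables are named for RPKM, but per the file headers they hold raw reads over exons from HOMER, with 1 transcript per gene and no normalization by the authors. The deposited Length column, of another unit, gives exon lengths in bases. Per the labels, total RNA of 300000 cells per library was read as 50-nt single ends, and the tools listed in the submitters' processing notes are STAR 2.4.0, Trimmomatic 033, edgeR 3.6.8, HOMER and RSEM 1.2.25, with the builds mm9 and NCBIM37. Many members have processed pseudogenes, and the treatment of reads that match several places is not given in the sources used here.

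In 10 of 25 columns the values of 26 symbols that a spreadsheet reads as dates are missing, and later values were moved down past them. These symbols and 114 of unsettled order were left out, and 24365 genes remained. RPKM were computed from counts, lengths and column totals. Genes that reached a mean of 1 RPKM in any group were tested in 1 fit over all 5 groups with edgeR 4.0.16 in R 4.3.3 (quasi-likelihood, TMM, trended dispersion, 2-sided, Benjamini-Hochberg, called at an adjusted p under 0.05). The SE is the absolute log2 change divided by the square root of F. The fit was tested on simulated data. DESeq2 1.42.0, other scalings, no filter, an exon-length term, a replicate block, and leaving out libraries were tried as alternatives. The members and lists were chosen with earlier results of these data known.

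Named members are the called ones with the smallest adjusted p, up to 6 per complex and comparison, a panel of 1 gene per complex, the isoform genes, and the 5 highest and 5 lowest by level, plus up to 3 called genes of each other list. Other members are named where a count is small and were chosen after their values were seen. Some results are not reported here. The main fit used group alone and matched no libraries by number, also for WT DN3 against WT DN2. In that comparison the residuals of all 4 equal-numbered pairs correlated across genes (0.171 to 0.608). In only 2 of these pairs was each library the best match of the other. Replicates of a group differed by more than sampling noise (chi-square per degree of freedom of at least 4.95). Gene positions are those of the mm9 table. Read counts are not independent molecules, and the depth above covers counting error only.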

Additional observations from a re-analysis of the deposited data

Results flagged for a closer look

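A single result had a library far from the others of its group. For Atp5g3, a c-ring gene of the ATP synthase, HET DN2 2 had 204 RPKM and the other HET DN2 libraries 264 to 282 RPKM; the gap was 0.776 of the group's range. HET DN2 2 is 1 of the 6 libraries with epithelial transcripts. The same test was made on 115 groups of values (22 genes and the share of counts in the members), and chance alone flags about 1 in 20.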

How the results depend on the processing

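Of 145 named gene results, 119 were called, and no called change reversed its sign under any alternative tried. Of the 26 that were not called, 7 changed sign under at least 1 alternative, among them Cox4i1 with the exon-length term (-0.09 in HOM against HET DN3 and -0.05 in HOM against WT DN2), and in 9 refits such a change moved by more than its SE. Of the 119 calls, the replicate block ended 43, the block with the length term 48, no filter 27, leaving out the 8 libraries named below 25 and the 6 named below 20, the length term 16, total counts 10, DESeq2-type size factors 1 and DESeq2 0. Leaving out 1 library ended the call in 209 of 1174 refits of a called gene. With the exon-length term the median log2 change was 0.061 in HOM against HET DN3 (10 called), 0.22 in HOM against WT DN2 and 0.23 in WT DN3 against WT DN2, where total counts also gave 0.23. Without a filter 11 members were called in HOM against HET DN3 and 9 in HET DN3 against HET DN2, where fewer low genes are removed before adjustment. Without the 8 libraries with epithelial or mature T transcripts 26 were called in HOM against WT DN3, 0 in HET DN3 against WT DN3 and 10 in HET DN3 against HET DN2, and the median was 0.49 in HOM against WT DN2. Without the 6 libraries with epithelial transcripts 1 was called in HET DN3 against WT DN3 and 12 in HET DN3 against HET DN2. DESeq2 called 13 in HET DN3 against WT DN3.

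With the replicate number as a block, 66 members were called in WT DN3 against WT DN2, including all 48 called without it. No named call changed there, and every equal-numbered pair correlated (0.171 or more). In HOM against HET DN3 and HET DN3 against HET DN2 some pairs correlated and others did not (-0.00552 to 0.745 and -0.697 to 0.736). Correlations reached no more than 0.12 in the other comparisons. The block gave 41 in HOM against WT DN2, 15 in HOM against HET DN3, 0 in HET DN3 against WT DN3 and 0 in HET DN3 against HET DN2. The block with the length term gave 1 (median 0.073) in HOM against HET DN3, 32 (median 0.22) in HOM against WT DN2, 0 in HET DN3 against WT DN3, 2 in HET DN3 against HET DN2, and a median of 0.23 in WT DN3 against WT DN2.

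Leaving out 1 library gave 11 to 18 called members in HOM against WT DN3, 10 to 28 in HOM against HET DN3, 53 to 72 in HOM against WT DN2, 0 to 13 in HET DN3 against WT DN3, 38 to 46 in WT DN3 against WT DN2 and 7 to 24 in HET DN3 against HET DN2. Most counts of members called under an alternative are given without the count over all genes under the same setting. They therefore do not show a shift particular to the members. The cause of these shifts was not tested.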

Other observations

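Glycolysis genes and regulators of mitochondrial genes, both outside the members, were looked at beside them. In WT DN3 against WT DN2, 12 of 23 glycolysis genes rose and 1 fell, where 12.2% of all genes rose and 9.30% fell, with Ldha, lactate dehydrogenase A, at a log2 change of 0.97, Pgam1 at 0.90 and Tpi1 at 0.88. In HET DN3 against HET DN2, 9 rose and none fell, where 6.36% of all genes rose and 4.52% fell, with Pfkp at 1.29, Ldha at 0.67 and Pgam1 at 0.61. In HOM against WT DN3, 4 were higher and 7 lower, where 19.8% of all genes rose and 19.7% fell: Ldhb, the other lactate dehydrogenase subunit, fell by 1.68 and Pfkl, the liver-type phosphofructokinase, by 0.66 on the log2 scale, while Slc2a3, a glucose transporter, rose by 1.03. Adjusted p-values of these named genes were at most 0.00254 (edgeR).

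Of 16 tested regulators, 5 rose in WT DN3 against WT DN2, among them Ppargc1b (0.66), Myc (0.58) and Pprc1 (0.50), and none fell. In HOM against WT DN3, 4 rose and 4 fell, and both counts read against the shares over all genes given above. Ppargc1b and Pprc1, both coactivators of mitochondrial gene expression, fell by 0.85 and 0.45, whereas Polg, the mitochondrial DNA polymerase, rose by 0.46. In HOM against WT DN2, Polg rose by 1.05, Myc by 0.57 and Gabpa, which overlaps Atp5j on the opposite strand, by 0.32, with adjusted p-values of at most 0.00599 (edgeR).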
